A study of Mus musculus with 4 samples.

Results

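Genes that lie inside the exons of a longer gene on the other strand were examined in mouse T-helper 2 (Th2) cells. A gene was taken as nested when its exons covered at least 200 bp and at least 80% of that length lay in exons of 1 longer gene on the opposite strand, called its host, on an autosome. By this rule 395 of the 50600 annotated genes were nested, in 381 different hosts. A further 3635 autosomal genes of at least 200 bp also shared exon sequence with a longer gene on the other strand without meeting the overlap of 80%, and served as the comparison.

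The samples were 4 libraries of Th2 primary cells of strain C57BL/6NJ, with replicate numbers 1 to 4 from the labels, which link a protocol for differentiating CD4 T cells. All of them belong to 1 group with no treatment or mutant named, and they share 1 donor identifier while each has its own biosample, so nothing says whether they came from separate animals. P-values therefore measure the spread between these libraries. The assay is labelled total RNA-seq, but the linked library protocol is named for poly(A) RNA, and the file headers place the cells at 72 h, after a sort. Fragment counts per gene, deposited by the authors, totalled 1780682, 1857433, 1446040 and 1274431 in replicates 1 to 4. At this depth 3 counts, the limit that a count of 0 allows, correspond to 1.62 to 2.35 CPM, counts scaled to 1000000 per library. This limit and all intervals given here cover counting error only. Of the markers of T cells 9 of 9 had counts, with summed counts of 528 to 1274 per library, and of the Th2 markers 6 of 6 (225 to 501). Of 14 markers of other cells 5 had counts, 650 to 958 in sum, which was above the Th2 markers in every library. Most of these were on 1 gene that has an exon opposite another gene (542 to 827 counts), and the others were Pecam1 (79 to 120), Cd79a (2 to 41), Cd68 (0 to 33) and Col1a1 (0 to 2). Cd8a, Cd8b1, Hbb-bs, Lyz2, Mpo, Ms4a1, Pf4 and S100a8 were among those at 0. In a bulk sample, fewer cells of a type and less RNA per cell cannot be told apart. The marker counts also depend on the strand option described next, so they were not read as a measure of either.

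A gene on one strand of DNA and a gene nested in its exons on the other strand are read in opposite directions, so their RNAs hold complementary sequence. Antisense RNAs of this kind are known in mammalian genomes as noncoding partners of mRNAs and, in some cases, as regulators of the gene opposite. A strand-specific library keeps the direction of each fragment, and the counting program assigns a fragment to the gene on 1 of the strands according to its strand option, which was 1 here. No source used here states which option the kit needs. The mitochondrial genome, outside the rule, holds mt-Nd6 as the 1 mRNA gene of its strand. This gene had 38990 to 49626 counts per kb in the 4 libraries, against 0 to 2853 for the 12 mRNA genes opposite, which in mammals yield most mitochondrial mRNA. A count, for the markers above as for the genes below, is therefore the number of fragments assigned to the annotated strand of a gene. It was not taken as the level of that gene's RNA. Under the opposite option a fragment would be assigned to the gene on the other strand, so the direction of the calls, ratios, shares and rankings below holds for option 1 alone.

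The shared sequence can be read in the reference transcripts (GENCODE M21, build GRCm38, the same assembly as mm10). The stretches below were chosen from the nested genes with the highest counts, from the Th2 cytokine gene Il5, and from a pair in which the host had the higher count. Each is 60 bases, 5′ to 3′, with the nested gene above its host, and each line is the reverse complement of the other.
Gm20721 and Gnas share an exon junction, and capitals mark the exon on 1 side of it (chr2:174346028-174346271, Gm20721 on the minus strand).
Gm20721: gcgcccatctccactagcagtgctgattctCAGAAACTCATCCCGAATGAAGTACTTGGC
Gnas: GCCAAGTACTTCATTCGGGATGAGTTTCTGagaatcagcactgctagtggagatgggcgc
Gm26718 and Pgam5 share a junction too, marked in the same way (chr5:110267236-110269681, Gm26718 on the plus strand).
Gm26718: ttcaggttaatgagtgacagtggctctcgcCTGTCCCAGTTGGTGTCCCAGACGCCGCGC
Pgam5: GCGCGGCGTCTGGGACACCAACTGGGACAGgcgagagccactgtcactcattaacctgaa
Gm20412 covers the end of the Tgm2 reading frame, and capitals mark the Tgm2 stop codon in both directions (chr2:158117801-158117860, Gm20412 on the plus strand).
Gm20412: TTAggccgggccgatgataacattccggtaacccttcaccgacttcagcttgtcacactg
Tgm2: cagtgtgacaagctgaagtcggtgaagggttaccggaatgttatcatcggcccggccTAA
Gm17041 covers the stop codon of Cish, in capitals (chr9:107300477-107300536, Gm17041 on the minus strand).
Gm17041: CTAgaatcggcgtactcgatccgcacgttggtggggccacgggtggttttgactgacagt
Cish: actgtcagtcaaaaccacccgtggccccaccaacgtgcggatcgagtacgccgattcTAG
Gm12214 covers the stop codon of Il5, in capitals (chr11:53723955-53724014, Gm12214 on the minus strand).
Gm12214: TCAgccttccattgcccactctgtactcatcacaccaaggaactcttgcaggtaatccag
Il5: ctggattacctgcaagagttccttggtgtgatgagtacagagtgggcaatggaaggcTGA
In the last pair the nested gene, Med10, is the coding one, and capitals mark its stop codon (chr13:69813903-69813962, Med10 on the plus strand).
Med10: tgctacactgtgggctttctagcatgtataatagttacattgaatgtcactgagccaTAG
Gm26819: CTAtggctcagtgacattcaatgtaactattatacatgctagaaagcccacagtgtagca

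Most nested genes were noncoding and most hosts were coding. The nested genes were 237 noncoding genes, 131 of them of the biotype antisense and 55 lincRNAs, 96 pseudogenes and 54 coding genes, while 8 had no match in the annotation that gave names and biotypes. The hosts of 290 nested genes were coding, those of 87 were noncoding, those of 17 were pseudogenes and 1 was unmatched. The exon length of the nested genes ran from 201 to 6243 bp with a median of 588 bp, against a median of 5023.5 bp for the hosts. In 227 cases the whole length of the nested gene lay in host exons, and in 327 its outer bounds lay within those of the host. Although 233 nested genes had introns in the M21 annotation, 3 of these genes shared an intron with their host, among them Gm20721 with 7 introns in common with Gnas. A start codon of the host lay within 44 nested genes and a stop codon within 60. The sequence of the nested gene was compared with its host by counts per kb of exon, and a nested gene is called denser or less dense than its host where edgeR's quasi-likelihood test within libraries gave an adjusted p below 0.05 over all opposite-strand pairs with at least 20 counts.

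Of the 395 nested genes 266 had a count, and 213 had counts in each of the 4 libraries. The latter is 53.9% of the nested genes, against 21.1% of the 40287 autosomal genes of at least 200 bp. Having counts was not particular to nested genes. Of the 3635 other genes opposite a longer gene 2676 had a count in any library, a larger part than the 266 of 395. A mean of at least 100 CPM was reached by 108 nested genes, against 35 hosts, and one of at least 1000 CPM by 23 nested genes, against 5 hosts, each host counted once. The median was 7.67 CPM over the nested genes and 3.13 CPM over the hosts. Without any count were 129 nested genes, and 83 of these had a host at 0 as well.

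**Figure D1:**
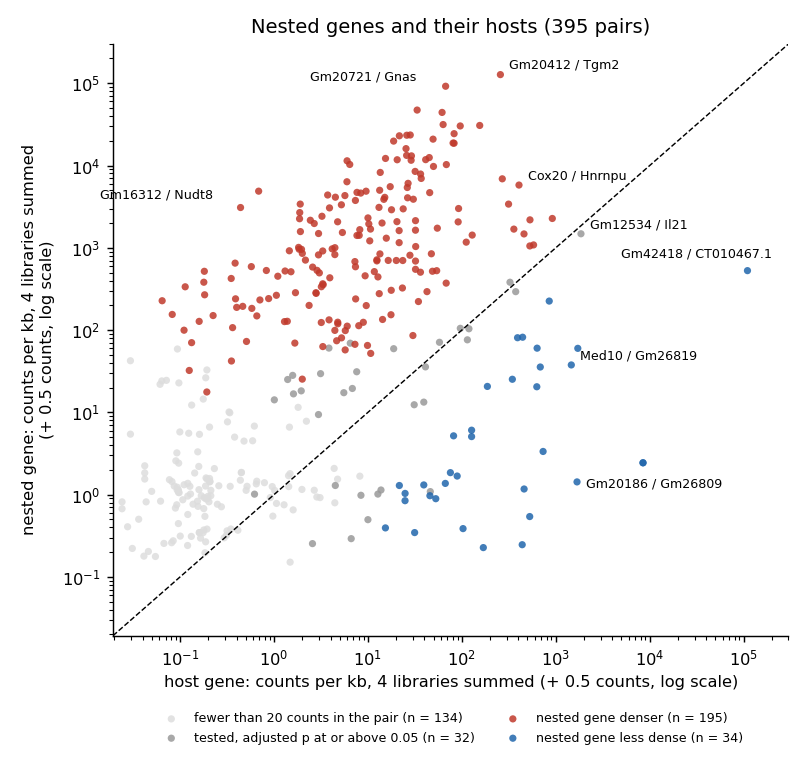
Counts per kb of each nested gene (vertical axis) against those of its host (horizontal axis), both summed over 4 libraries with 0.5 counts added and on log scales, with 1 point per pair. The dashed line marks equal counts per kb, and 195 pairs were called above it and 34 below.

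Of the 261 pairs that could be tested, 195 nested genes (74.7%) were denser than their host, 34 (13.0%) were less dense and 32 were not called. Over all 2846 opposite-strand pairs tested, 54.3% of the shorter genes were denser than the longer gene and 22.5% were less dense. The other pairs alone gave 1350 denser and 606 less dense of 2585. A pair entered the test through either gene, 59 of them through the nested gene alone and 39 through the host alone, which fixed the direction of many of these. In the 160 pairs with at least 20 counts on both genes, 139 nested genes were denser, 11 were less dense and 10 were not called. Under the same limit 60.2% of the shorter genes in all 1940 opposite-strand pairs were denser and 19.8% less dense. Without any test, 241 of the 395 nested genes (61.0%) had the higher count per kb, against 1901 of the 3635 other shorter genes (52.3%). Of the nested genes 206 had the higher raw count although they are the shorter gene. A fragment is assigned when it overlaps a gene at all, so counts per kb run high for short genes. Without the length offset 154 nested genes (59.0%) were called higher than their host, against 43.5% of all pairs, and 57 were called lower.

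The differences were large. The median log2 ratio of nested gene over host, per kb, was 6.29 in the tested nested pairs and 2.34 in the other pairs. With the 14 hosts and 25 nested genes at 0 set at 3 counts over the 4 libraries, the median of the nested pairs was 6.09. More than 2-fold higher counts per kb than in the host were found for 206 tested nested genes, more than 10-fold for 185 and more than 100-fold for 127. The ratio had the same direction in every library for most pairs. The nested gene was denser in all 4 libraries in 192 of 261 pairs (73.6%), against 57.1% of all pairs tested, in none of them in 45, and in 1 to 3 of them in 24.

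The nested genes as a group took 9.72%, 11.4%, 10.98% and 9.33% of the counts of replicates 1 to 4. Their share of the counts of nested genes and hosts together was 63.1% (95% Wilson interval 62.9 to 63.2), 59.7% (59.6 to 59.9), 62.7% (62.6 to 62.9) and 65.0% (64.8 to 65.2). Most of the host counts came from 1 rRNA entry, CT010467.1. Without the pairs of rRNA sequence (CT010467.1, Gm42418 and AY036118) the share was 82.2%, 85.5%, 84.0% and 81.2%. The highest nested gene took 19.7% to 21.5% of the nested genes' counts in a library and the 10 highest 53.1% to 54.1%.

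**Figure D2:**
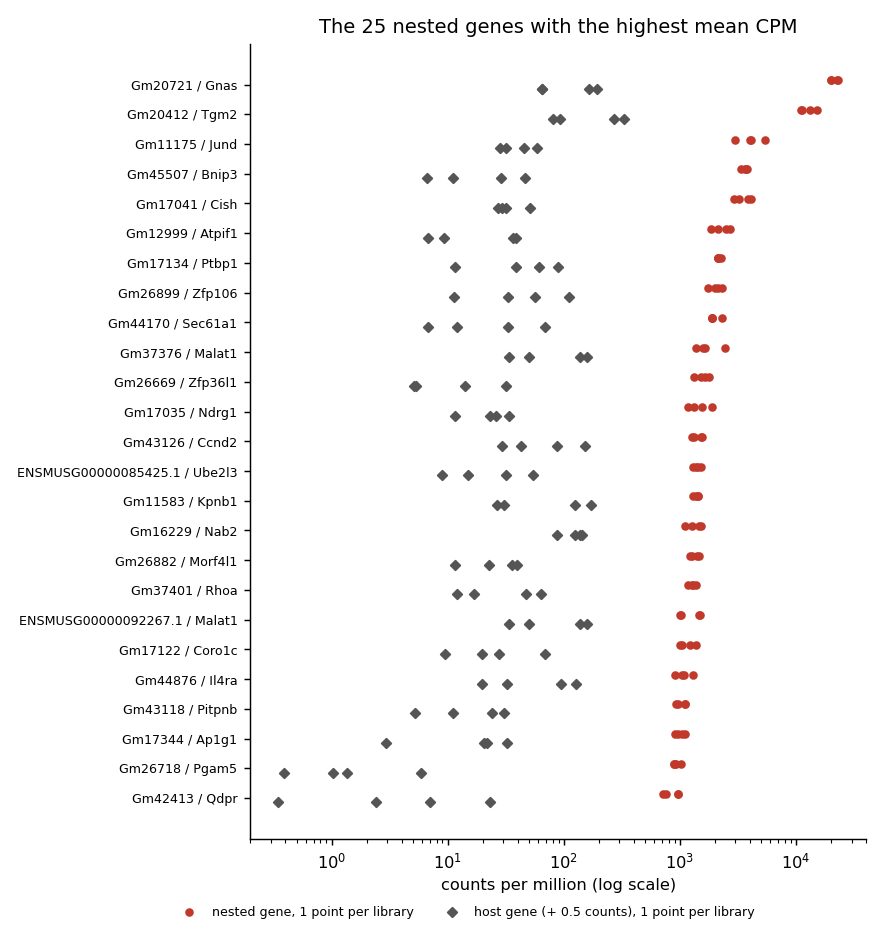
CPM on a log scale of the 25 nested genes with the highest mean (circles, 1 per library) and of their hosts (diamonds, 1 per library, with 0.5 counts added). In each of the 25 pairs the 4 libraries of the nested gene lie above the 4 of the host.

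Ranked by the counts of the gene nested in them, the first host was Gnas, which encodes the stimulatory G protein alpha subunit from an imprinted locus. Gm20721 (chromosome 2, 174330319 to 174346712, minus strand, 99.0% in Gnas exons) had 35778, 41662, 33447 and 25569 counts, in the order of the replicates, against 293, 119, 94 and 245 counts for Gnas. No library of Gm20721 came near the range of Gnas. The means were 21429 ± 1586 CPM for Gm20721 and 121 ± 66.7 CPM for Gnas (SD, n = 4 each), and the log2 ratio per kb was 10.55 ± 0.63 (SE, adjusted p = 2.98e-05, edgeR quasi-likelihood test).

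Tgm2, which encodes the protein-crosslinking enzyme transglutaminase 2, came next. Its nested gene Gm20412 (chromosome 2, 158117154 to 158117905, plus strand) had 19881, 27840, 18884 and 13980 counts, against 480, 172, 117 and 416 counts for Tgm2. Tgm2 was highest in replicates 1 and 4, and its highest count lay far below the lowest of Gm20412. The log2 ratio was 9.14 ± 0.69 (SE, adjusted p = 3.50e-05, edgeR). Gm20412 lies toward the 3′ end of Tgm2, and its whole length is Tgm2 exon.

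The third host was Jund, an AP-1 transcription factor gene of a single exon, and the fourth Bnip3, a hypoxia-induced gene of mitochondrial clearance. Gm11175 in Jund had 7256, 10097, 5765 and 3793 counts, against 103, 58, 40 and 57 counts for Jund. Gm45507 in Bnip3 had 6546, 6717, 5409 and 4266 counts, against 51, 20, 9 and 59 counts for Bnip3. Both nested genes stood above their host in each library, and the log2 ratios were 7.62 ± 0.47 for Gm11175 (adjusted p = 2.98e-05) and 9.74 ± 0.72 for Gm45507 (adjusted p = 3.50e-05, edgeR, SE). Gm11175 lies entirely in the Jund coding sequence (100%), while 32.1% of the overlap of Gm45507 was coding in Bnip3.

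Cish, a cytokine-induced inhibitor of cytokine receptor signalling, was the fifth host. Gm17041 had 5759, 7650, 5523 and 3684 counts, against 56, 54, 39 and 65 counts for Cish, a log2 ratio per kb of 10.44 ± 0.50 (SE, adjusted p = 2.98e-05, edgeR). Gm12999 opposite Atpif1, whose product inhibits the mitochondrial ATP synthase, averaged 2293 ± 371 CPM, against 22.5 ± 17.1 CPM for Atpif1 (SD, n = 4 each). Gm17134 opposite Ptbp1, a splicing repressor gene, averaged 2159 ± 49.4 CPM, against 50.03 ± 33.1 CPM for Ptbp1. These nested genes were denser than their hosts as well, with log2 ratios of 8.55 for Gm12999 and 9.15 for Gm17134.

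Other hosts among the 25 highest were Sec61a1 of the protein translocation channel, the importin gene Kpnb1, the small GTPase gene Rhoa, the cyclin gene Ccnd2, the ubiquitin-conjugating enzyme gene Ube2l3, the mRNA decay factor gene Zfp36l1 and the actin regulator gene Coro1c. Gm44170 in Sec61a1 averaged 1997 ± 215 CPM, against 29.8 ± 28.0 CPM for Sec61a1 (SD, n = 4 each). Gm11583 in Kpnb1 averaged 1380 ± 64.3 CPM, against 87.5 ± 70.9 CPM for Kpnb1. Gm43126 in Ccnd2 averaged 1415 ± 138 CPM, against 77.6 ± 55.3 CPM for Ccnd2. In these 3 pairs no library of the host reached the range of the nested gene.

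Zfp106, Ndrg1, Morf4l1, Pitpnb, Ap1g1, Pgam5 and Qdpr complete the coding hosts of this ranking together with Nab2 and Il4ra. Gm26899 in Zfp106 is the longest of these nested genes, at 3328 bp, and had 2040 ± 233 CPM, against 52.5 ± 42.8 CPM for Zfp106 (SD, n = 4 each). The smallest ratio among the 25 was that of Gm16229 over Nab2, a corepressor gene of EGR factors, with 1981, 2682, 2208 and 1621 counts, against 221, 253, 208 and 110 counts for Nab2. There the log2 ratio was 4.72 ± 0.34 (SE, adjusted p = 3.41e-05, edgeR). Gm26718 had 1826, 1651, 1333 and 1133 counts, against 10, 2, 1 and 0 counts for Pgam5, a mitochondrial phosphatase gene with which it shares a junction.

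Malat1, the abundant nuclear noncoding RNA gene, was the host of a pair of the 25, both on chromosome 19. Gm37376 had 2465, 3054, 3513 and 2014 counts and ENSMUSG00000092267.1, which has no symbol in the annotation used, had 1787, 2691, 2164 and 1289, against 243, 62, 72 and 200 counts for Malat1. Both were denser, with log2 ratios of 8.41 ± 0.69 for Gm37376 and 8.0 ± 0.70 for ENSMUSG00000092267.1 (SE, adjusted p = 4.30e-05 and 5.09e-05, edgeR).

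Among the hosts of the Th2 list, a set of 31 genes of which 30 were measured, were the cytokine gene Il5, the IL-4 receptor gene Il4ra and the transcription factor gene Maf. Their 3 nested genes were all denser than the host. Hosts made up 0.753% of all genes, and 74.7% of all tested nested genes were denser against 54.3% of all pairs, so counts of a few denser genes on a list say little about that list. Gm44876 in Il4ra had 1864, 1993, 1860 and 1162 counts, against 167, 36, 46 and 161 counts for Il4ra (log2 ratio 7.50 ± 0.70, SE, adjusted p = 6.10e-05, edgeR). Gm12214 had 1092, 1961, 846 and 1001 counts, against 6, 7, 1 and 17 counts for Il5, the gene of an eosinophil growth factor made by Th2 cells. Its log2 ratio was 9.35 ± 0.70 (adjusted p = 3.50e-05). Gm15655 in Maf, which drives Il4 transcription, had 95, 162, 81 and 38 counts, against 7, 4, 5 and 0 counts for Maf (log2 ratio 8.84 ± 0.89, adjusted p = 8.34e-05).

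The cytokine signalling list held Cish and Il21, the gene of a cytokine that acts on B cells and on T cells themselves. Gm12534 had 198, 163, 163 and 170 counts, against 2704, 2953, 2450 and 1645 counts for Il21. This host had by far the higher raw count in every library, but per kb the pair was not called (log2 ratio −0.30 ± 0.30, SE, adjusted p = 0.386, edgeR). With 300 bp added to each exon length, or with no length offset, the call went to the host, at log2 ratios of −0.93 (adjusted p = 0.0230) and −3.78 (adjusted p = 9.02e-05). Il21 was the third of the hosts by their own counts.

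Hypoxia response genes gave 3 hosts of 20 on that list, Bnip3, Ndrg1 and Mxi1, each with a denser nested gene. Of all genes 0.753% were hosts and of all tested nested genes 74.7% were denser, and the list was not tested against these shares. Gm17035 in Ndrg1, a gene induced by stress and hypoxia, had 2362, 3536, 2244 and 1483 counts, against 46, 21, 33 and 42 counts for Ndrg1. Gm10197 in Mxi1, which encodes a MYC antagonist, had 573, 776, 681 and 420 counts, against 27, 13, 8 and 38 counts for Mxi1. The log2 ratios were 10.02 ± 0.59 for Gm17035 (adjusted p = 2.98e-05) and 9.77 ± 0.74 for Gm10197 (SE, adjusted p = 3.51e-05, edgeR).

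Splicing factor genes gave 4 hosts of 44 on that list, among them Ptbp1 and Hnrnpu, and the 4 nested genes were denser. Of all tested nested genes 74.7% were denser, against 54.3% of all pairs, and the list was not tested against these shares. Cox20, a coding gene of cytochrome oxidase assembly that lies over the 3′ end of Hnrnpu, had 1659, 1356, 1235 and 863 counts, against 1529, 1075, 1018 and 1085 counts for Hnrnpu. Here the raw counts overlapped, and the call (log2 ratio 3.82 ± 0.32, SE, adjusted p = 4.44e-05, edgeR) rested on length, since with no length offset the log2 ratio was 0.10 (adjusted p = 0.758).

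Among the other lists, the activation list had 1 host (Jund), the cell cycle list 1 (Ccnd2) and the chaperone list 1 (Hspa1a), each with a denser nested gene. With 74.7% of all tested nested genes and 54.3% of all pairs denser, a single denser gene says little about its list. Gm20481 in the heat shock gene Hspa1a had 69, 78, 97 and 44 counts, against 2, 2, 0 and 0 counts for Hspa1a. Among the markers of other cell types, the B cell gene Cd22 was a host, and its pair was not called, with 0 counts for Gm29439 in every library against 14, 15, 12 and 1 for Cd22. No gene of the glycolysis, proteasome, respiratory chain, ribosomal protein, T cell receptor and translation factor lists was a host.

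**Figure D3:**
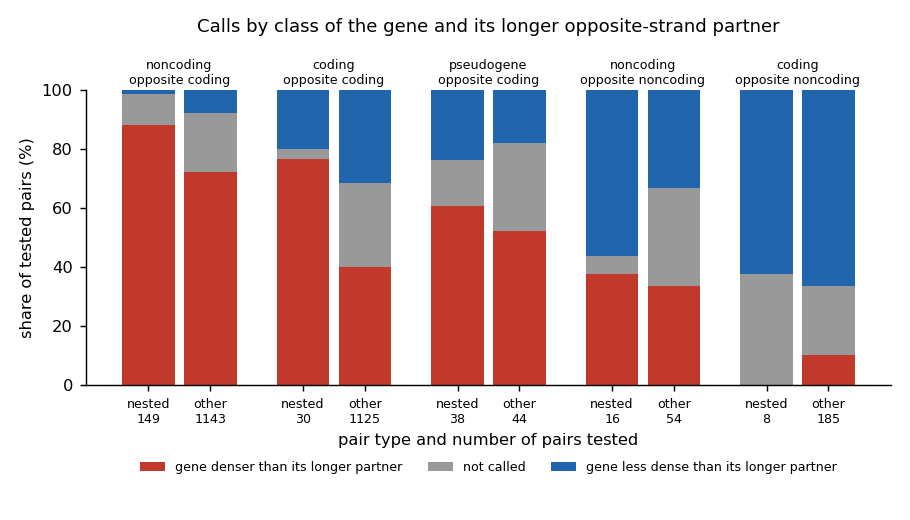
Share of tested pairs in which the gene was denser (red), not called (grey) or less dense (blue) than its longer partner on the other strand, by class of gene and partner, for nested genes (left bar) and other pairs (right bar), with the number tested under each bar. Noncoding genes opposite coding hosts were denser in 87.9% of nested pairs, and coding genes opposite noncoding hosts in 0 of 8.

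The direction differed by the class of the genes. Noncoding genes nested in coding hosts were denser in 131 of 149 tested pairs (87.9%) and less dense in 2, against 826 (72.3%) and 90 of 1143 other pairs of the same classes. Coding genes nested in coding hosts were denser in 23 and less dense in 6 of 30, against 449 and 355 of 1125 other pairs. Where the nested gene was the coding one and the host noncoding, 0 were denser and 5 were less dense of 8, against 19 and 123 of 185 other pairs. Noncoding genes in noncoding hosts were denser in 6 (37.5%) and less dense in 9 of 16, against 18 (33.3%) and 18 of 54 other pairs. These counts describe the classes, and the difference between classes was not tested.

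Among coding genes nested in coding hosts, Gm20721 had the highest count and Gm26602 the highest ratio. Gm26602 in R3hdm4 had 776, 1098, 801 and 577 counts, against 6, 11, 8 and 8 counts for R3hdm4 (log2 ratio 10.86 ± 0.47, SE, adjusted p = 2.98e-05, edgeR). The 6 less dense genes of this class were Pdcd2, Ikzf5, Pus3, Phospho1, Rangrf and Smco3, of which all but Phospho1 are named after their values were seen. Pdcd2 had 78, 52, 49 and 32 counts, against 1665, 1650, 1524 and 1105 counts for Tbp, which encodes the TATA-binding protein (log2 ratio −2.49 ± 0.31, adjusted p = 0.000221). Ikzf5, an Ikaros family gene, had 38, 54, 25 and 27 counts, against 859, 816, 578 and 476 counts for Pstk (log2 ratio −3.80 ± 0.35, adjusted p = 6.02e-05). Pus3, a pseudouridine synthase gene, had 198, 158, 197 and 116 counts, against 1417, 1485, 1217 and 965 counts for Hyls1 (log2 ratio −1.93 ± 0.30, adjusted p = 0.000625). Phospho1, a phosphatase gene of bone mineralisation, had 0 counts in every library, against 474, 578, 429 and 342 counts for Abi3, which was at least 297-fold denser if the nested gene is set at 3 counts over the 4 libraries.

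Among coding genes inside noncoding hosts, the host was the denser gene in every called pair. The noncoding gene thus stood above the coding one, as in most pairs of a noncoding gene in a coding host. Med10, a Mediator subunit gene, had 2, 7, 0 and 23 counts, against 2063, 2195, 1857 and 1388 counts for Gm26819 (log2 ratio −5.86 ± 0.93, SE, adjusted p = 0.000708, edgeR). Icam4, an adhesion molecule gene, had 11, 5, 13 and 10 counts, against 644, 736, 574 and 429 counts for Gm47079 (log2 ratio −4.28 ± 0.46, adjusted p = 0.000106). Sp6, Hist2h2bb and Ldhal6b were the others called, and like Med10 and Icam4 they were picked after their values were seen.

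Pseudogenes were denser than a coding host in 23 and less dense in 9 of 38 tested pairs, against 23 and 8 of 44 other pairs. Their counts are uncertain, because reads from a near-identical parent gene can be split between copies or dropped. The highest among tested pseudogenes was Gm17711, picked after its values were seen, with 1083, 867, 528 and 483 counts, against 28, 3, 6 and 10 counts for its host Abracl.

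**Figure D4:**
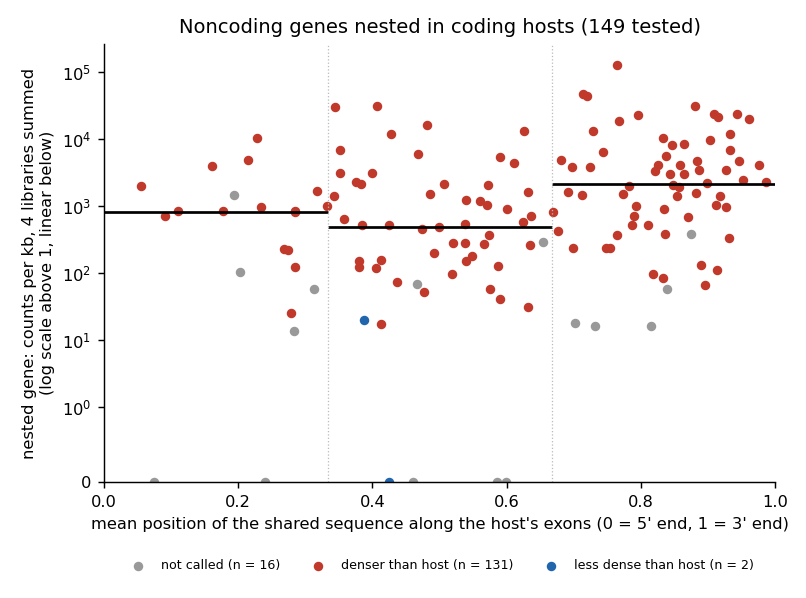
Counts per kb (4 libraries summed, log scale above 1) of the 149 tested noncoding genes nested in coding hosts, by the mean position of the shared sequence along the host's exons from the 5′ end (0) to the 3′ end (1). Black lines are medians of the tested genes in the 5′, middle and 3′ parts of the host's exons, at 830, 495 and 2128 counts per kb.

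Counts also differed by the place of the nested gene within its host, whose exons were cut into 3 equal parts. Of noncoding genes in coding hosts, 16 of 22 tested pairs (72.7%) were denser in the 5′ part, 50 of 57 (87.7%) in the middle and 65 of 70 (92.9%) in the 3′ part. Over the 3 parts together 131 of 149 (87.9%) were denser. With untested genes included, the median was 17.9 counts per kb for the 40 genes in the 5′ part, 199 for the 73 in the middle and 1554 for the 80 in the 3′ part. Among tested genes alone the 5′ part stood above the middle, with medians of 830 and 495 counts per kb, and the 3′ part above both, at 2128. The parts were not tested against each other. Nested genes that cover a host stop codon were denser in 40 of 45 tested pairs (88.9%). Those that cover a host start codon were denser in 21 of 28 (75.0%). Over all tested nested genes with protein-coding hosts 181 of 222 (81.5%) were denser, and over all 261 tested nested genes 74.7%. Genes of more than 1 exon block were denser in 142 of 179 tested pairs (79.3%) and those of a single block in 53 of 82 (64.6%). None of these shares was tested against the 81.5% or the 74.7%. Across the 261 tested pairs Spearman's rho of position and log2 ratio was 0.23, and that of nested CPM and host CPM was 0.10, as descriptions over pairs that share their libraries.

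In the 10 highest ratios per kb the hosts had 0 to 91 counts over the 4 libraries. Gm47327 in Rnf26 had 368, 406, 343 and 161 counts, against 0, 0, 0 and 2 counts for Rnf26, a ratio per kb of 8880 with a counting interval of 2453 to 73405. Gm43791 in Rgs12, a regulator of G protein signalling, had 56, 83, 40 and 63 counts, against 1, 0, 0 and 0 counts for Rgs12 (ratio 4277, counting interval 760 to 169638). Against hosts at 0 in every library, set at 3 counts over the 4 libraries, Gm16312 in Nudt8 was at least 1167-fold denser, Gm16042 in Glcci1 at least 587-fold and ENSMUSG00000101767.1 in Begain at least 492-fold. Gm16312 had 240, 464, 262 and 151 counts. Gm17139 in Arel1, Gm10401 in Sppl3, Gm20463 in Rnf5 and Gm27232 in Rfx7 were also among the 10 highest, with log2 ratios of 10.95, 10.76, 10.70 and 10.56 in that order.

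The 10 lowest ratios had noncoding hosts in 6 pairs and the coding hosts Abi3, Hspa1l, Fam221b and Mrrf in the others. The small nucleolar RNA genes Snora73a and Snora73b had 0 counts in every library, against 3735, 3448, 3311 and 2463 counts for Gm17300, which was at least 580-fold denser than either. Gm20186 had 0, 1, 0 and 0 counts, against 1004, 1490, 1385 and 1139 counts for Gm26809 (ratio of host over nested gene 1767, counting interval 317 to 69826). AY036118 had 0 counts in every library, against 391, 165, 96 and 314 counts for Gm42418, which was at least 162-fold denser. Gm42418 is itself nested in CT010467.1, the rRNA entry with the highest count of any host, and had the same 391, 165, 96 and 314 counts, against 63894, 106386, 64021 and 36621 counts for CT010467.1. Hspa1l was at least 124-fold denser than Gm10501, and Gm45705 had 2, 0, 0 and 0 counts, against 284, 294, 221 and 183 counts for Gm45706, with which it shares all of its length. The pseudogenes Gm12481, Got2-ps1 and Gm13428 complete the 10 lowest, each at 0 in every library.

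By their own counts the first hosts were CT010467.1 with 41542 ± 12262 CPM, Gm17300 with 2044 ± 192 CPM, Il21 with 1523 ± 171 CPM, Gm26819 with 1178 ± 80.8 CPM and Gm5148 with 1040 ± 206 CPM (SD, n = 4). The first coding host of the ranking by nested genes, Gnas, had 121 CPM. Of the hosts of less dense nested genes 15 of 34 had a further gene with exons opposite theirs, as had those of 63 of 195 denser and 14 of 32 uncalled nested genes.

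**Figure D5:**
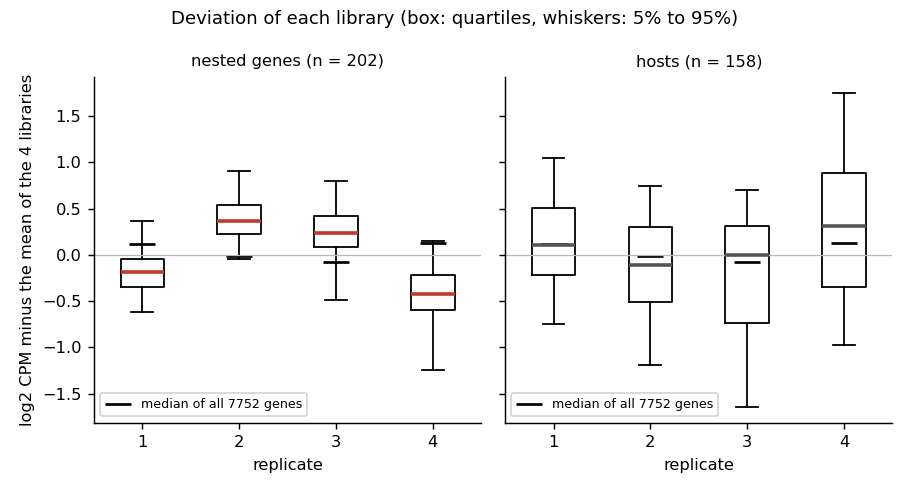
Deviation of log2 CPM in each replicate from the mean of the 4 libraries, for 202 nested genes (left) and 158 hosts (right) with a mean count of at least 10. Boxes are quartiles, whiskers run from the 5th to the 95th percentile, and the short black lines are medians of 7752 genes. Nested genes were above their mean in 94.1% of cases in replicate 2 and in 10.9% in replicate 4, against 49.5% and 54.5% of the 7752 genes.

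The median deviation of the 202 nested genes from their mean over libraries, in log2 CPM, was −0.19, 0.37, 0.24 and −0.42 in replicates 1 to 4. For the 158 hosts it was smaller, at 0.11, −0.11, 0.00092 and 0.31, with the sign opposite to that of the nested genes in all but replicate 3. Noncoding nested genes in coding hosts (135 genes) had −0.18, 0.37, 0.21 and −0.40, and their 87 hosts 0.28, −0.34, −0.19 and 0.58, opposite in sign in each library. Over all 7752 genes the median was 0.12, −0.01, −0.08 and 0.13. In replicates 1 to 4, 21.8%, 94.1%, 84.2% and 10.9% of the nested genes lay above their mean, against 57.4%, 49.5%, 46.4% and 54.5% of all 7752 genes. The median log2 ratio of nested gene over host was highest in replicate 2, the deepest library, at 6.87, and lowest in replicate 4, the shallowest, at 5.38. Between them, replicate 1 had a lower median than replicate 3 although it is the deeper library, so the order did not follow depth throughout. The part of depth in these differences was not tested.

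When each library was set against the other 3 with edgeR's quasi-likelihood test, 0 of the 202 nested genes were called in any library, and 4 of all 7752 genes were (0.0516%). At an unadjusted p under 0.05 there were 1, 4, 2 and 16 nested genes in replicates 1 to 4, against 33, 216, 726 and 683 of all genes. DESeq2 called 0 nested genes as well. In simulated counts this test recovered 3.5% of genes changed by 4-fold and 83% of those changed by 16-fold. The simulation gave every gene the same dispersion and placed the change in replicate 1. At that spread smaller differences between libraries would mostly go uncalled, and the limit for genes of smaller spread was not tested.

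Just inside the overlap limit lay ENSMUSG00000101767.1 (80.4%), Gm28289 in Hivep2 (80.6%) and Gm26896 in BC025920 (80.8%). Gm28289 had 219, 331, 237 and 175 counts, against 5, 4, 3 and 41 counts for Hivep2, and Gm26896 had 352, 384, 389 and 218 counts, against 2, 5, 0 and 2 counts for BC025920. Just outside it, Gm45631 (79.2%) had 95, 122, 126 and 78 counts, against 15, 0, 12 and 11 counts for Clcn4. Fen1 (78.8%), a DNA replication gene, had 25, 9, 10 and 3 counts, against 3967, 4112, 3498 and 2393 counts for Gm10143, and Gm16105 (77.9%) had 43, 23, 36 and 17 counts, against 0, 5, 3 and 0 counts for Celf5.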

How the data were processed

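Gene counts of 4 Th2 libraries were used as deposited. Per the file headers, the authors made the counts with featureCounts v1.4.6-p4 on STAR alignments (version not given in the sources used here) to mm10 with annotation GENCODE M13, counting paired fragments over exons with both ends mapped and the strand option set to 1. A listing deposited with each table was not used. Names, biotypes and transcript sequences came from GENCODE M21, in which 50376 of 50600 identifiers matched.

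Pairs were built from the exon coordinates of the tables. The nested gene and its host were compared with edgeR 4.0.16 (R 4.3.3) in a quasi-likelihood fit with pairs as features, library as a term and an offset of library total and exon length, with Benjamini-Hochberg adjustment at 0.05 over all 2846 pairs with at least 20 counts. The SE of a log2 ratio was the absolute log2 ratio divided by the square root of the F statistic of that test. Each library was tested against the other 3 with TMM scaling over genes that averaged at least 10 counts. In counts simulated with the same dispersion for every pair, the pair test recovered 0% of pairs changed by 2-fold, 37% by 4-fold and 100% by 16-fold. The library totals, 1274431 to 1857433, set the precision of each value. Alternatives used limma 3.58.1, DESeq2 1.42.0, other overlap, length and count limits, no length offset, and each replicate left out.

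Members and gene lists were chosen with earlier results of these data known. Named genes were the 25 with the highest mean CPM, up to 3 per gene list, the 10 lowest and 10 highest ratios among called pairs, the 3 on each side of the overlap limit and the 3 at 0 with the highest hosts, plus those named as chosen later. Gene lists were read by their counts and not tested. Some results of this rule are not reported here.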

Additional observations from a re-analysis of the deposited data

Results flagged for a closer look

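In 87 sets of 4 libraries, the highest or lowest library was checked for a gap to its neighbours that is large against the range of the set, which chance gives in about 1 of 20 sets. 3 sets had such a library. Gm17134, nested in Ptbp1, had 2233 CPM in replicate 1 and 2127 to 2143 CPM in the others. Gm44170, nested in Sec61a1, had 2318 CPM in replicate 2 and 1869 to 1901 CPM in the others. Hivep2, the host of Gm28289, had 32.2 CPM in replicate 4 and 2.07 to 2.81 CPM in the others.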

How the results depend on the processing

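The count of denser nested genes was 113 with an overlap of 100%, 343 with an overlap of at least 50% and 121 with a length of at least 500 bp, and the less dense count was 16 with an overlap of 100%, 84 at 50%, 17 with coding hosts and 57 with no length offset. The median log2 ratio was 6.94 with at least 100 counts per pair, 5.26 with at least 1 count, 5.50 at 50% overlap, 5.31 from 500 bp, 6.93 with coding hosts and 3.41 with no length offset. The nested share of pair counts was 81.6% at 100% overlap, 56.3% at 50%, 57.1% without the highest nested gene, 87.0% with coding hosts and 83.2% without the rRNA pairs, the last chosen after the data were seen. The share of library counts was 5.38% at 100% overlap and 15.8% at 50%. Changing the members changes these counts by construction. Without 1 replicate, 176 to 192 nested genes were denser, 27 to 33 less dense, the median ratio was 6.06 to 6.47, and the shares were 61.8% to 63.6% and 10.01% to 10.7%. Of 53 named pairs, Cox20 over Hnrnpu and Gm12534 over Il21 changed their call under an alternative, as given beside them. At this depth a nested gene at 0 in a library may still have up to 1.62 to 2.35 CPM in that library. For genes at 0 in every library the bounds above used 3 counts over the 4 libraries, a lower limit. No paired analysis was possible because the libraries form 1 group, with no second group to pair by replicate number; nested gene and host were compared within libraries throughout.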
